A study of Drosophila melanogaster with 13 samples.

Results

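The regions described here are 601 MSL3 peaks of the X chromosome that were present in adult males with wild-type MLE, carried neither an MSL1 nor an MSL2 peak, and had no MSL3 counterpart in males whose MLE lacked its CLAMP binding domain (CBD). The members were chosen by measured peak positions, as the X peaks of the MSL3 list of the MLEwt line that overlapped, by at least 1 bp, no MSL1 or MSL2 peak of that line and no MSL3 peak of the MLEΔCBD line. The list holds 2915 peaks, of which 1030 lie on the X chromosome, and the 6 lists of the series hold 6400 peaks in all. The other X MSL3 peaks are 217 MSL3-only peaks that were kept in MLEΔCBD males and 212 peaks that carried MSL1 or MSL2 in MLEwt males. The lost peaks are 73.5% of the 818 X MSL3-only peaks, a share that the choice itself sets, and 59.7% of all 1030 X MSL3 peaks had no MSL3 counterpart in MLEΔCBD males.

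The study made ChIP-seq from whole adult males, 2 to 3 days old, with rabbit antibodies against MSL1, MSL2 and MSL3, in 2 replicates for each of the 3 proteins in each of the 2 lines. Males of both lines were *y1w1118* and homozygous for *mle9*, so neither made functional MLE of its own, and both carried a FLAG-tagged MLE transgene under the ubiquitin promoter at the attP site M{3xP3-RFP.attP}ZH-86Fb on chromosome 3. In MLEwt males the transgene was wild-type and stood over the TM6 balancer, whereas in MLEΔCBD males it lacked the CBD and was homozygous, so copy number differed between the lines together with the deletion. Immunoblots in the study showed comparable amounts of the tagged protein from these genotypes. Each line rests on 1 insertion site, and MLEΔCBD males were described as weak. Each protein and line has 1 peak list with no read counts and no replicate labels, so the depth is unknown here, no test between the lines was possible, and no p-value is given. In chromatin from whole flies, MSL3 absent from some cells and less MSL3 in every cell cannot be told apart.

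The MSL complex raises transcription of the single male X chromosome. It first binds high-affinity sites, many of which hold GA repeats that the zinc-finger protein CLAMP recognises, and then spreads to active genes nearby. MSL3 carries a chromodomain that reads trimethylated lysine 36 of histone H3, a mark that the methyltransferase Set2 lays over the bodies of transcribed genes, and MLE is the RNA helicase that remodels the roX RNAs of the complex. An X peak of MSL3 without MSL1 or MSL2 is thus a stretch where, of the profiled proteins, only MSL3 passed the peak threshold. Other subunits of the complex, MLE among them, were not profiled, so their presence there is unknown. The MSL1 and MSL2 lists of MLEwt males are also far shorter, with 293 and 222 peaks against 2915 for MSL3.

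Sequence at the summits is shown because the GA repeat is the element that marks high-affinity sites. Of the 601 lost peaks, 23 (3.83%, 95% Wilson interval 2.56 to 5.68) held 4 GA units, GAGAGAGA or TCTCTCTC on the plus strand, within 100 bp of the summit, against 3.50% of all 1030 X MSL3 peaks. Windows of the same 201 bp tiled over the X chromosome held the repeat in 1.54% of 116786 cases, and the 216 X MSL2 summits of MLEwt males held it in 30.1%. The 5 longest repeats at intronic summits of lost peaks are printed with the repeat in capitals (dm6 sequence from RefSeq, plus strand, 5′ to 3′), from *Tlk*, a Tousled-like kinase gene (chrX:3779852-3779881), *inaE*, which encodes a diacylglycerol lipase (chrX:13805742-13805771), *spoon* (chrX:5418025-5418054), *CG3726* (chrX:5918800-5918829) and *Nost* (chrX:9042568-9042597).
Tlk: acTCTCTCTCTCTCTCTCTCTCTCTCTCtt
inaE: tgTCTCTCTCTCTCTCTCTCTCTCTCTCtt
spoon: caaatgccGAGAGAGAGAGAGAcaacgaga
CG3726: cagagagcGAGAGAGAGAGAGAggaagaga
Nost: tccatctaTCTCTCTCTCTCTCactcgcat

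The summits of the highest lost peaks looked different. The 30 bases centred on 4 of them are shown for contrast, from *Crag* (chrX:8600510-8600539), *CG15772* (chrX:5753088-5753117), *CG3632* (chrX:16298580-16298609) and *Arp8* (chrX:17859683-17859712). All 4 lie in coding exons, none has a GA repeat of 4 units within 100 bp, and their GC content in these 30 bases runs from 53.3% to 70.0%.
Crag: ccgtgttcgacaagctgacggagcgggagt
CG15772: caacagcaacaccttcagcagcagcaacac
CG3632: gccatcttggcccgatgcagccagccggag
Arp8: taggacagccgcaccctggcatccagctgc

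GA repeats among lost peaks followed the gene part under the summit. They were found at 11 of the 45 summits in introns (24.4%, 14.2 to 38.7) and at 3 of the 437 in coding exons (0.686%), while X windows centred in coding exons held them in 0.343% of cases. The 23 peaks with a repeat were low, with a median fold enrichment over background of 3.01 against 3.79 for the other 578. Of the peaks with the 2 repeats of 26 bases, *Tlk* had a fold enrichment of 2.44, 519 bp from an MSL2 peak of MLEwt males, and *inaE*, above both medians, had 4.63, 20295 bp from one. The next longest repeat, of 18 bases, lay in the 3′ UTR of *CG1695* in a peak of fold enrichment 3.08. The share with a repeat was 6.16% within 250 bp of the summit and 1.83% when 5 GA units were required, so its size depends on the definition. Among the 217 kept peaks, 1 (0.461%, 0.0814 to 2.56) held a repeat within 100 bp. CA repeats (CACACACA or TGTGTGTG) were found at 20 lost summits (3.33%) and in 5.77% of X windows, and the motif TATCGATA, the core of the DRE element that the factor DREF binds, at 1 (0.166%) against 0.706% of X windows. Windows centred in coding exons, where most lost summits lay, held these in 0.675% and 0.205% of cases. The CA repeat was at 0 of the 437 coding and 9 of the 45 intronic lost summits (20.0%).

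Among the X MSL3 peaks, the lost peaks were of low to middle strength. Their fold enrichment had a median of 3.76 (interquartile range 2.94 to 5.20) and ran from 2.24 to 10.4, whereas that of the kept peaks had a median of 7.18 (4.08 to 9.94) and that of the peaks with MSL1 or MSL2 a median of 16.4 (11.8 to 20.7). In the list of 2915 peaks of all chromosomes, the highest lost peak was number 250. Lost peaks had a median place of 1110 there (722 to 1576). Lost peaks were also narrower, with a median width of 1654 bp (924 to 2857) against 2599 bp for kept peaks and 6464 bp for peaks with MSL1 or MSL2. These values come from the list that chose the members, so they are given as a description, and the part of peak strength in the loss was not tested. In all, lost peaks covered 1320 kb, which is 5.61% of the X chromosome and 36.6% of the length under X MSL3 peaks.

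**Figure D1:**
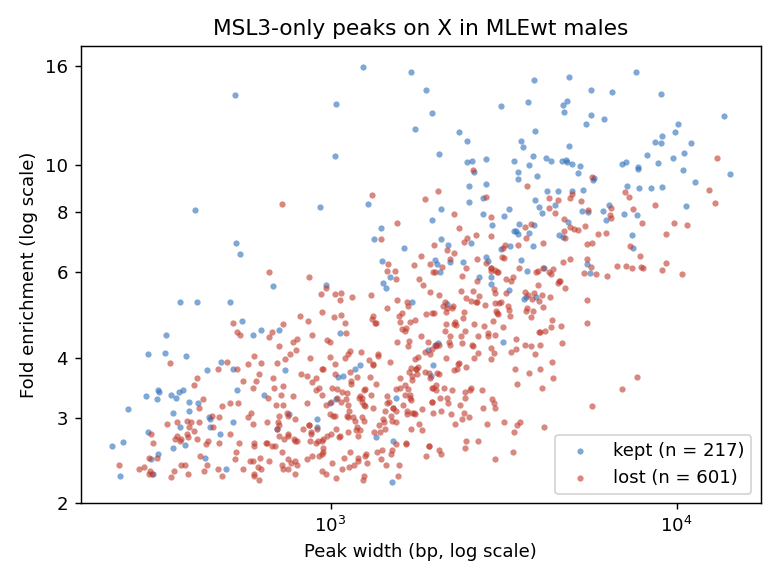
Fold enrichment over background (log axis) against peak width in bp (log axis) for the X MSL3-only peaks of MLEwt males, with 1 point per peak, coloured as lost or kept. The 601 lost peaks sit at the lower left, with medians of 3.76 and 1654 bp, and overlap the 217 kept peaks (medians of 7.18 and 2599 bp) over much of their range.

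The list gives each peak in a pair of peak sets that the reproducibility procedure compared, and these are the only paired values for a member. The study's procedure used true replicates and pseudoreplicates (random parts of the reads), and the pair is not labelled as either. Closeness of the pair is thus not read as spread between biological replicates. Over the 601 lost peaks, the −log10 p had a median of 44.9 in the first set and 46.7 in the second, and the ratio of the second to the first had a median of 1.00, with 5% to 95% of the peaks between 0.733 and 1.52. None fell below a ratio of 0.5, and 10 exceeded a ratio of 2. Summits of the pair lay a median of 60 bp apart (21 to 145), and 485 (80.7%) were within 250 bp. Such closeness is in part a condition for being listed, since peaks that differed between the sets were removed before deposit, and 45 lost peaks share their interval in the second set with another X peak.

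The 10 peaks above a ratio of 2, named after their values were seen, were joined to a wider interval in the second set. The peak at *mxc*, which encodes a protein of the histone locus body, had a −log10 p of 193.9 in the first set and 675 in the second, with widths of 6472 and 11074 bp. That at *Tip60*, a histone acetyltransferase gene, had 117 and 394, with widths of 2901 and 15235 bp. The largest ratio was at *Fim*, with 40.3 and 297 and widths of 1149 and 4174 bp. The others were in or nearest to *CG32813*, *elav*, *Alr*, *CG14621*, *waw*, *Dsp1* and *Ant2*. For these 10 peaks the pair of sets disagrees on where the peak ends, and the first set holds the narrower interval in all 10.

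**Figure D2:**
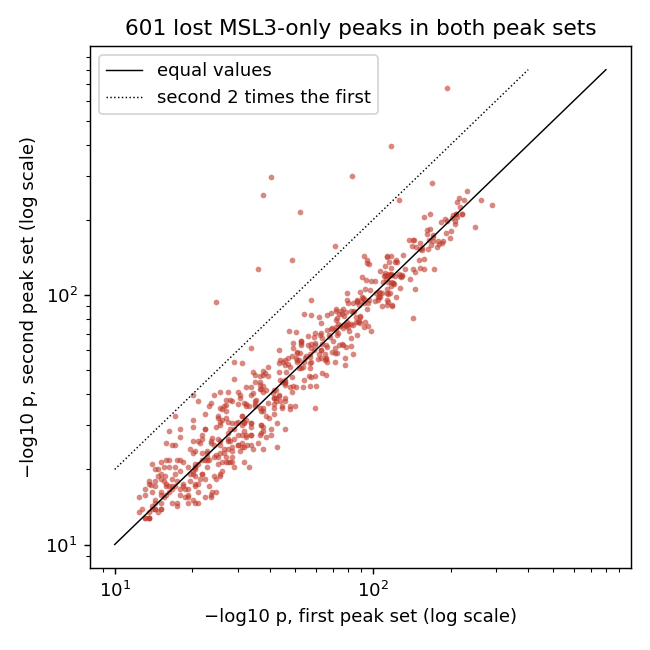
The −log10 p of each of the 601 lost peaks in the second peak set against that in the first (both axes log), with a line at equality. Most points follow the line, with a median ratio of 1.00, and the 10 peaks with a ratio above 2 stand above it.

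The 8 lost peaks of highest fold enrichment all had their summits in coding exons. The top peak covered 86.7% of *Crag*, which encodes a DENN-domain exchange factor for Rab GTPases (X, 8593361 to 8606397, dm6). Its fold enrichment was 10.4 and its −log10 p 289 in the first set and 229 in the second. The peak over *CG15772* (5752297 to 5754869) had 9.78, with −log10 p of 263 and 239, and lay only 378 bp from an MSL2 peak of MLEwt males, the shortest such distance among the 601. Lost peaks thus included some of high value, far from an MSL2 peak as at *Crag* (23992 bp) or close beside it as at *CG15772*.

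At *CG3632* (16297554 to 16303255) the fold enrichment was 9.44 and the −log10 p 248 and 187. The peak at *Arp8*, which encodes an actin-related subunit of the INO80 remodelling complex (17857064 to 17860749), had 9.05, with −log10 p of 232 and 260. At *hang*, a zinc-finger gene of ethanol tolerance (16428931 to 16441320), the values were 8.89, 225 and 239. *CG11710* (8.83), *CG14200* (8.80) and *LIMK1*, the kinase that phosphorylates cofilin (8.71), completed the 8, and in none did the pair of −log10 p values differ by a factor above 1.5. The peak at *hang* was 71785 bp from the nearest MSL2 peak of MLEwt males, the farthest of the 8.

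The 5 widest lost peaks covered 61.0% to 100% of the gene each overlapped most. After *Crag* at 13037 bp came a peak of 12888 bp that overlapped 6 protein-coding genes, *CG3078* over the greatest length, with its summit in *crn*, a splicing factor gene. The peak at *hang* was 12390 bp wide. That at *Upf1*, the RNA helicase of nonsense-mediated decay, was 10686 bp wide, covered the whole gene and had a −log10 p of 169 in the first set and 281 in the second. At *sov*, a zinc-finger gene of heterochromatin, a peak of 10347 bp had a fold enrichment of 5.95. At the other end, *mei-P26*, *Gmap* and *Hs3st-B*, chosen as the lowest values, had fold enrichments of 2.24, 2.24 and 2.26.

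The threshold of the choice is the overlap of 1 bp with an MSL3 peak of MLEΔCBD males. Just inside it were the peaks at *Naxe*, an NAD(P)HX epimerase gene, 228 bp from such a peak, *Trf2*, a TBP-related factor gene, at 341 bp, *CG9902* at 354 bp, *fliI*, a gelsolin-family gene, at 377 bp, and *IntS4*, an Integrator subunit gene, at 393 bp. Just outside it were kept peaks at *CG5445*, overlapping by 216 bp, *CG8611* by 227 bp, *CG44774* by 228 bp and *CG14434* by 233 bp. The distance from lost peaks to the nearest MSL3 peak of MLEΔCBD males had a median of 6296 bp, and 81 (13.5%) had one within 1000 bp. *IntS4* shows that nearness and strength could go together, with a fold enrichment of 8.53 and −log10 p of 209.7 and 211.

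The MSL1 and MSL2 lists of MLEΔCBD males took no part in the choice. Of the 601 lost peaks, 1 overlapped an MSL1 peak of MLEΔCBD males (0.166%, 0.0294 to 0.936), against 15.2% of all X MSL3 peaks, and 0 overlapped an MSL2 peak (upper bound 0.635%), against 5.44%. Among kept peaks the counts were 16 (7.37%, 4.59 to 11.6) and 1 of 217, and among peaks with MSL1 or MSL2 in MLEwt males 140 (66.0%) and 55 of 212. The 1 lost peak lay in an intron of *Arp2*, an Arp2/3 subunit gene (16552890 to 16553584), with an MSL3 fold enrichment of 3.19 and −log10 p of 31.1 and 32.7. The MSL1 peak inside it was 312 bp wide, had a fold enrichment of 2.98 and was number 351 of 577 in its list. With overlaps included, MSL1 peaks of MLEΔCBD males lay within 1000 bp of 13 of the 601 lost, 25 of the 217 kept and 141 of the 212 other X MSL3 peaks. MSL1 peaks of MLEwt males lay that near to 25 lost and 10 kept peaks. Lost and kept peaks alike exclude the MSL1 and MSL2 sites of MLEwt males, and kept peaks are the stronger class, whose part in this difference was not tested.

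Most lost summits lay in the coding parts of genes. The summit was in a coding exon for 437 (72.7%, 69.0 to 76.1), in a 3′ UTR for 56 (9.32%), in an intron for 45 (7.49%), in a 5′ UTR for 42 (6.99%), in another exon for 6 and between genes for 15 (2.50%, 1.52 to 4.08). The coding share was 68.9% over all X MSL3 peaks and 69.8% over peaks with MSL1 or MSL2, both near that of the lost peaks. The kept peaks stood apart from these, with a coding share of 57.6% (51 to 64.0) and an intergenic share of 18.9% (14.2 to 24.6). In all, 579 lost summits (96.3%, 94.5 to 97.6) lay inside a protein-coding gene, against 93.0% of all X MSL3 peaks and 79.7% (73.9 to 84.5) of the kept ones. The intergenic peaks were low, the highest 3 having their summits beside *Gss1* (3.90), *DIP1* (3.49) and *CG3939* (3.47), which were named after their values were seen.

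**Figure D3:**
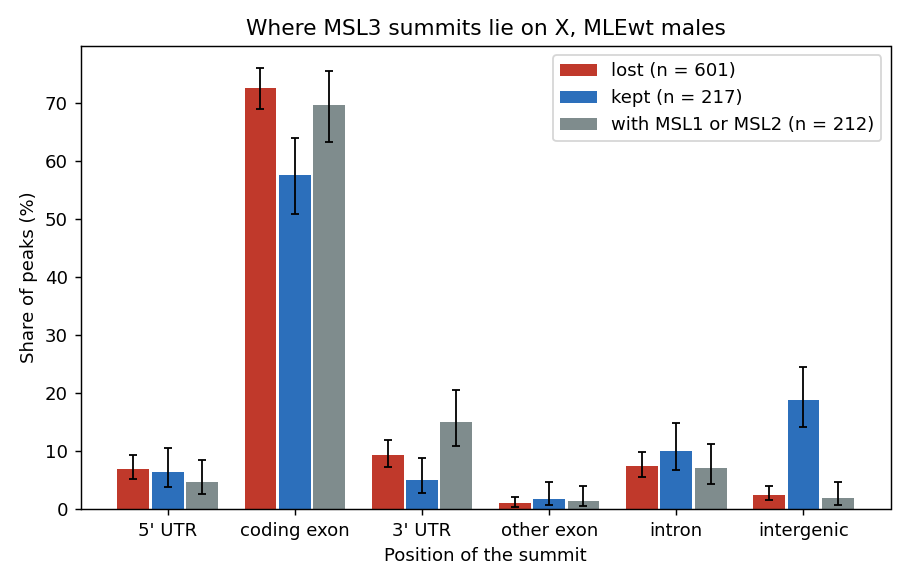
Share of summits, in percent from 0, by annotated gene part for lost, kept and MSL1- or MSL2-carrying X MSL3 peaks of MLEwt males, with 95% Wilson intervals as bars. Coding exons hold 72.7% of lost and 57.6% of kept summits, and intergenic sequence holds 2.50% and 18.9%.

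With all strengths pooled, a smaller share of the lost than of the kept peaks had a transcription start within 200 bp. A start lay that near to 309 lost peaks (51.4%, 47.4 to 55.4), against 62.5% of all X MSL3 peaks and 71.4% (65.1 to 77.0) of kept peaks. The share was 84.9% for peaks with MSL1 or MSL2, which were wider. Counted from the summit alone, the share of lost peaks within 200 bp of a start was 8.15%. Along the gene each peak overlapped most, with 0% as its start and 100% as its end, the lost summits had a median position of 63.5% (39.2 to 83.8, 592 peaks). Over 5 equal parts of the gene, from start to end, their shares were 11.7%, 14.2%, 20.4%, 23.8% and 29.9%. Those of all X MSL3 peaks were near these, at 14.1%, 12.5%, 18.2%, 22.8% and 32.4%. Kept summits had nearly the same median, 60.0% (202 peaks), but 24.3% of them in the first of these parts, and peaks with MSL1 or MSL2 had a median of 71.9%. Of these summits, 38 lost and 43 kept ones lay outside the gene and were set to its nearer end.

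**Figure D4:**
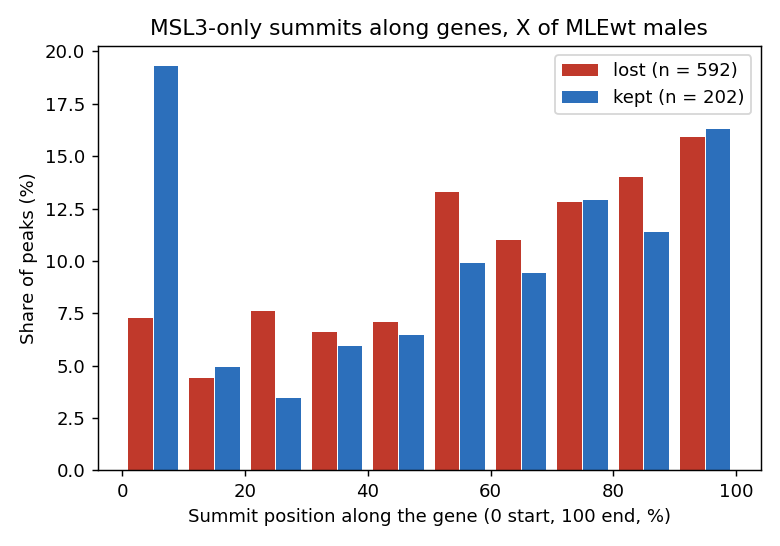
Share of summits, in percent, in 10 equal parts of the gene from its start to its end, for lost and kept X MSL3-only peaks. Lost summits have 7.26% in the first part, 4.39% in the second and 15.9% in the last, without a steady rise. The kept peaks have 19.3% in the first part and 16.3% in the last. Summits outside the gene are counted at its nearer end.

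The contrast in coding share between lost and kept peaks differed with peak strength. Below a fold enrichment of 3, 96 of 165 lost summits lay in coding exons (58.2%) and 0 of 22 kept ones, of which 14 were intergenic. Between 3 and 4 the coding share was 64.3% of 168 lost and 6.67% of 30 kept peaks, and between 4 and 6 it was 84.3% of 172 and 32.3% of 31. Between 6 and 8 it was 89.0% of 73 lost and 88.4% of 43 kept peaks, and at 8 or more 23 of 23 and 82.4% of 91. The share of MSL3-only peaks that were lost was 88.2%, 84.8%, 84.7%, 62.9% and 20.2% over these 5 ranges. The shares were thus far apart below 6 and close between 6 and 8. At 8 or more most peaks of either class were coding, and only 23 peaks were lost. For starts within 200 bp, the lost and kept shares were 41.2% and 72.7% in the lowest range, 41.1% and 53.3%, 59.3% and 67.7%, then 69.9% and 76.7% between 6 and 8. At 8 or more, 19 of 23 lost (82.6%) and 69 of 91 kept peaks (75.8%) were at a start, the other order but on few lost peaks.

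**Figure D5:**
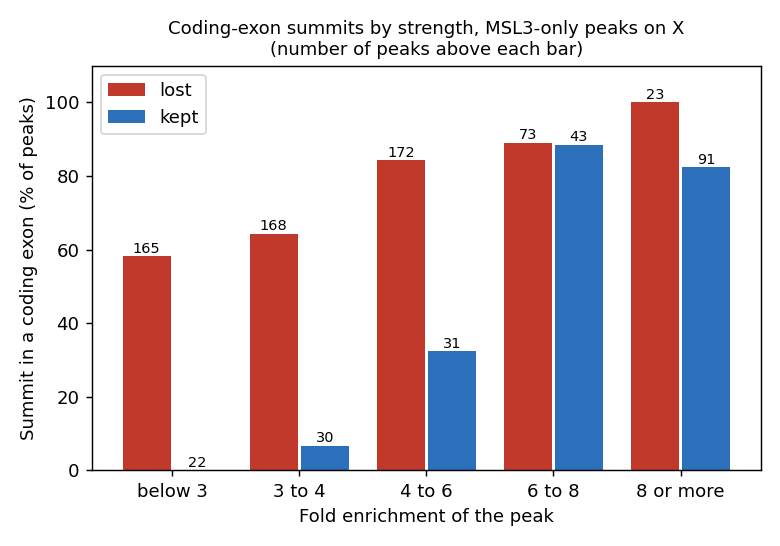
Share of summits in a coding exon, in percent, for lost and kept X MSL3-only peaks in 5 ranges of fold enrichment, with the number of peaks above each bar. The lost and kept shares are far apart below 6 (58.2% against 0% in the lowest range) close between 6 and 8 (89.0% against 88.4%), and 100% against 82.4% at 8 or more.

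The lost peaks fell on 646 of the 2196 protein-coding genes of the X chromosome (29.4%). Of these genes, 512 (79.3%) carried no other kind of X MSL3 peak, 75 also had a kept peak and 71 a peak with MSL1 or MSL2. In 538 (83.3%) the MLEΔCBD list had no MSL3 peak anywhere in the gene, against 73.4% of all X protein-coding genes and 53.2% of the 1231 with any MSL3 peak in MLEwt males, a share that the choice of lost peaks raises. Lost peaks covered a median of 61.2% of the gene, and 46 genes were covered over their whole length. The genes had a median length of 3456 bp against 2521 bp for all X protein-coding genes, and the part of gene length in these counts was not tested.

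Some genes held several lost peaks. There were 116 with at least 2 and 33 with at least 3. The most were the 5 over *CG14200*, with fold enrichments of up to 8.80. *CoRest*, which encodes a transcriptional corepressor, had 4 that covered 89.5% of it, the highest at 7.43. *shi*, the dynamin gene, had 4 that covered 70.9% of it, with fold enrichments of up to 6.41. These 3 genes had no MSL3 peak of MLEΔCBD males.

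Genes of cytosolic ribosomal proteins, all of which had an MSL3 peak in MLEwt males, were divided between lost and kept peaks. Of the 14 on the X chromosome, 7 had a lost peak (50.0%, against 29.4% of all X genes), 8 a kept peak and 1 a peak with MSL1 or MSL2, and 5 of the 7 had no MSL3 peak in MLEΔCBD males. Among the 1231 X genes with any MSL3 peak in MLEwt males, 646 had a lost peak, and 7 of 14 is near that share. The peak over the whole of *RpS19a* had a fold enrichment of 7.59 and −log10 p of 172 and 128. *RpS10b* had 5.86 and *RpL35* 5.45, each in a peak whose summit lay in a neighbouring gene. The peak at *RpS14a* and *RpS14b* had 3.63, with −log10 p of 41.5 and 33.2. That peak spans both genes, which are near-identical copies, so its place between them is uncertain.

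Genes of the respiratory chain and the ATP synthase supply subunits of the mitochondrial inner membrane. Of 12 on the X chromosome, 6 had a lost peak (50.0%, against 29.4% of all X genes), none of these 6 had an MSL3 peak in MLEΔCBD males, 2 had a kept peak and 4 a peak with MSL1 or MSL2. All 12 had an MSL3 peak in MLEwt males, and 6 of 12 is near the 646 of 1231 X genes with any such peak. *ND-ASHI*, a complex I subunit gene, had a fold enrichment of 7.07 and −log10 p of 152 and 153. *ND-B16.6*, of the same complex, had 5.45, with 94.7 and 138, and *UQCR-14*, of complex III, lay whole in a peak of 5.11, both with the summit in a neighbouring gene. *ATPsyndelta* had 4.06. The 6 proteasome genes carried no lost peak, 2 having a kept peak, 2 a peak with MSL1 or MSL2 and 2 no MSL3 peak.

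Of 10 genes of metabolism and housekeeping, 5 (50.0%, against 29.4% of all X genes) carried a lost peak, and none of these 5 had an MSL3 peak in MLEΔCBD males. All 10 had an MSL3 peak in MLEwt males, and 5 of 10 is near the 646 of 1231 X genes with any such peak. The peak at *kdn*, the citrate synthase gene, had a fold enrichment of 6.48, with −log10 p of 130.1 and 119.5. *sesB* and *Ant2*, overlapping genes of ADP/ATP translocases, share a peak of 6.04. *Zw*, which encodes glucose-6-phosphate dehydrogenase, had 5.18, with 85.9 and 81.6. The actin gene *Act5C* had 3.15.

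Of 16 neuronal genes, 7 (43.8%, against 29.4% of all X genes) carried a lost peak, 1 a kept peak and 5 a peak with MSL1 or MSL2, and 6 of the 7 had no MSL3 peak in MLEΔCBD males. The peak at the clock gene *per* had a fold enrichment of 7.57 and −log10 p of 171 and 164. The highest peak of *shi* had 6.41, with 128 and 119. *elav*, which encodes the pan-neuronal RNA-binding protein, had 3 lost peaks, the highest at 6.13, and *rut*, an adenylyl cyclase gene, had 4, the highest at 4.88. These 16 genes are long, with a median of 40690 bp, against 2521 bp for all X genes. Of them, 5 had no MSL3 peak in MLEwt males, and 646 of the 1231 X genes with one had a lost peak.

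Of 18 signalling genes, 6 (33.3%) carried a lost peak, against 29.4% of all X genes, and 5 of the 6 had no MSL3 peak in MLEΔCBD males. In MLEwt males 4 of the 18 had no MSL3 peak, and 646 of the 1231 X genes with one had a lost peak. At *dsh*, of the Wnt pathway, the fold enrichment was 7.91 and the −log10 p 185 and 162. *sgg*, the GSK3 kinase gene, had 5.47, and *fu*, a kinase gene of the Hedgehog pathway, had 5.18. *csw*, a tyrosine phosphatase gene, was counted through a peak of 8.51 that touched 0.107% of its length and lay on its neighbour *ph-d*.

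Of 15 genes of chromatin and transcription, 5 (33.3%, against 29.4% of all X genes) carried a lost peak, 5 a kept peak and 9 a peak with MSL1 or MSL2. Of the 5 with a lost peak, 3 had no MSL3 peak in MLEΔCBD males. Only 1 of the 15 had no MSL3 peak in MLEwt males. Among X genes with any such peak, 646 of 1231 had a lost peak, a larger share than in this list. *ph-d*, a Polycomb group gene, had a fold enrichment of 8.51 and −log10 p of 209 and 193. *z*, which encodes the DNA-binding protein Zeste, had 6.0, with 113 and 91.0. *Bap60*, of the Brahma remodelling complex, had 5.95, with 112 and 123. *ph-p*, a neighbouring paralogue of *ph-d*, had 4 lost peaks, the highest at 5.86, and reads from sequence the pair share could not be told apart here. *mof*, the acetyltransferase of the MSL complex, and *Set2* carried a peak with MSL1 or MSL2 and no lost peak.

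The lost peaks were spread over the whole chromosome. Their distance to the nearest MSL2 peak of MLEwt males had a median of 13962 bp (6561 to 27163), with 116 (19.3%) within 5 kb and 384 (63.9%) within 20 kb. For kept peaks the median was 11975 bp, with 27.2% within 5 kb and 64.1% within 20 kb. Within 50 kb lay 89.7% of lost and 85.7% of kept peaks. Over all X MSL3 peaks, which include those with MSL2, the shares within 5 and 20 kb were 36.4% and 70.6%. The share of MSL3-only peaks that were lost was 66.3% (59.0 to 72.9) within 5 kb, 77.0% from 5 to 20 kb, 76.7% from 20 to 50 kb and 66.7% farther out, without a steady trend. The median fold enrichment of lost peaks in these 4 ranges was 4.05, 3.75, 3.83 and 3.23, and that of kept peaks 9.03, 6.90, 6.36 and 4.45. The 23 full megabases of the chromosome held 10 to 52 lost peaks each, with a median of 24.

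Lost peaks often followed one another with no other X MSL3 peak of MLEwt males between them. They formed 233 such runs, of which 90 were single peaks and 34 had 5 or more members and together held 223 peaks. The longest, of 10 peaks each, ran from *CG13373* to *arg*, past *elav* (X, 477086 to 519340, 42255 bp), and from *Pfrx* to *Grip84*, past *CG14200* and *CoRest* (X, 19496583 to 19565530, 68948 bp). Fold enrichment in the first of these ran from 2.94 to 6.80 and in the second from 2.33 to 8.80. With 73.5% of MSL3-only peaks lost, the lengths of such runs were not tested against another order of the peaks.

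On the autosomes, where MSL3-only peaks were chosen the same way, 838 of 1839 (45.6%) were lost. These were lower than the lost X peaks, with a median fold enrichment of 2.34 (2.16 to 2.63) and a median width of 772 bp. Their summits lay in coding exons in 53.2% of cases against 24.7% of the 1001 kept autosomal peaks, and a start lay within 200 bp of 39.4% against 57.2%. The X peaks of all strengths together had the same order on both measures, 72.7% against 57.6% and 51.4% against 71.4%. MSL1 peaks of MLEΔCBD males overlapped 7 lost autosomal peaks (0.835%) and 159 kept ones (15.9%).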

How the data were processed

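Reads were trimmed by the authors (cutadapt) and aligned to dm6 (Bowtie2). Peaks came from MACS2 and were filtered by the irreproducible discovery rate (IDR) procedure. The submitters' processing notes also name Picard and deepTools. They deposited 6 lists of 20 columns, 1 per protein and line, and 0 per-sample columns were left unmapped. The fold enrichment of each deposited peak is a ratio over background by MACS2, and its p-value, q-value and IDR were deposited as −log10 values, as was the p-value in each of the pair of peak sets compared. Start, end and −log10 p of a peak equal those of the first set. Of the 228 fold enrichments among members, 134 were shared by at least 2 members. All 134 pair with 1 −log10 p of the first set, and only 2 with 1 of the second, so the fold enrichment also describes the first set. The study made 12 ChIP libraries and 1 library with preimmune serum, which was not analysed here, and coverage tracks and high-affinity site coordinates were not used here.

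An overlap of 1 bp made a peak shared between lists. Genes, starts and exons came from Ensembl release 115 (BDGP6.54), with 2196 protein-coding genes on X, and sequence from the RefSeq copy of dm6. A summit was given the first of 5′ UTR, 3′ UTR, coding exon, other exon, intron and intergenic that held it. Transcription starts were sought within 200 bp of a peak, and GA repeats of 4 units within 100 bp of a summit. Shares have 95% Wilson intervals for the counting of peaks alone, and peaks of 1 chromosome are not independent. Depth is unknown, so a missing peak is one that was not listed, not one shown to be absent.

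The members and all gene lists were chosen with earlier results of these data known. The rule for named genes took the 8 highest and 5 widest peaks, the 5 nearest to and the 5 just past the threshold of the choice, the 3 highest with MSL1 or MSL2 in MLEΔCBD males, the 3 longest GA repeats, the 3 genes with most members and genes of 7 lists (ribosomal proteins, respiratory chain, proteasome, signalling, neuronal, chromatin, metabolism). 1 listed chromatin gene of 16 was not matched. 1 peak that the rule names is not reported here. Functions were tested on simulated data. Alternatives covered the overlap, the IDR and q-value thresholds, list lengths, the second peak set, windows and means. Calculations ran in Python 3.11.15 with pandas 2.3.3, numpy 2.4.6 and scipy 1.17.1, and plots were drawn with matplotlib 3.10.9.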

Additional observations from a re-analysis of the deposited data

How the results depend on the processing

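Of 72 alternative values, 58 stayed within the interval or the factor of 1.5 set for them and 14 moved. Counting peaks within 1000 bp as shared left 515 members, all among the 601, with 66.4% of X MSL3-only peaks lost and a median distance to MSL2 of 16510 bp. A global IDR of 0.001, chosen after the data were examined, left 548 members, 484 of them among the 601, with a median fold enrichment of 4.47, a median width of 2036 bp, a median distance of 16666 bp, 56.2% at a start and 0% with MSL1 or MSL2 of MLEΔCBD males. The share at a start was 73.7% within 1000 bp and 8.15% from the summit, and 98.5% of peaks, taken whole, overlapped a protein-coding gene. GA repeats were at 6.16% within 250 bp and 1.83% with 5 units. Means in place of medians gave 4.24 and 2197 bp. The causes of these moves were not tested beyond the wider or narrower definitions themselves. Equal list lengths left 573 members and the intervals of the second set 591, of which 589 are among the 601. A −log10 q of at least 3 and an overlap of 50% of the shorter peak left all 601. A global IDR of 0.01 left 602 members, which include all 601. Values under the q-value, 50% overlap and IDR 0.01 settings could thus hardly move, and their place among the 58 says little about dependence on the processing. In each of the member sets named above the kept peaks lay less often in genes and more often at starts than the lost ones. No paired analysis was possible because each protein and line has 1 list whose peak sets carry no replicate number, and for the same reason no replicate could be left out. Without depths, a lost peak cannot be told apart from one that a shallower library missed.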
